A study of Mus musculus with 6 samples.

Results

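Proximal tubular cells were treated with rapamycin before palmitate, 1 of the 3 diabetic stimuli that they received. The miRNAs of that culture were set against those of the same stimuli without the drug. The comparison rests on 2 of the 6 arrays of the series, chosen by their titles, "Triple stimuli" and "Triple stimuli + Rapamycin", with 1 array for each. The array carries 1247 mouse miRNAs, of which 184 were detected on both arrays, 11 on 1 of them and 1052 on neither. The cells were mProx24, a proximal tubular line from C57B6 mouse kidney. Both cultures were kept at 1% oxygen for 12 h in high glucose and then given 150 µM palmitate, a saturated fatty acid, bound to 0.15% albumin for 9 h. The drug culture received 0.4 µg/ml rapamycin for 12 h before palmitate. The labels give neither the glucose concentration nor a solvent control, so rapamycin and its solvent cannot be told apart. Each condition is 1 culture of 1 line, and every labelling started from 100 ng total RNA, so a level is relative to total RNA, and fewer cells carrying a miRNA cannot be told apart from less of it per cell.

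Rapamycin binds FKBP12, and the complex inhibits mTORC1, the kinase that couples nutrients, oxygen and growth factors to protein synthesis, ribosome production and the restraint of autophagy. In proximal tubular cells mTORC1 is known as a sensor of glucose and fatty acid load. miRNAs are short RNAs cut from hairpins by Drosha and Dicer. They pair with target mRNAs mainly through the seed, bases 2 to 8, so miRNAs with the same seed can share targets.

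Few miRNAs separated the 2 arrays. Of the 184 miRNAs detected on both, 4 were at least 1.5-fold higher with rapamycin (2.17%) and 3 at least 1.5-fold lower (1.63%), which is 3.8% in either direction, and 177 were neither. The higher ones were miR-290-5p, miR-5126, miR-2861 and miR-135a-1-3p, and the lower ones miR-712-5p, miR-5100 and miR-19a-3p. No difference reached 2-fold; the log2 differences ran from -0.68 to 0.66. Differences are log2 values with rapamycin minus those with triple stimuli alone, after scaling, and the error given with each is the standard error between spots of the same probe on the 2 arrays. A call also required the difference to exceed 2 of these standard errors. With 1 array per condition there is no replicate check and no p-value, and the spot error leaves out any spread between cultures or arrays. The levels of the 2 arrays correlated across miRNAs with Pearson's r of 0.995, over miRNAs that share arrays and are not independent replicates.

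The bulk of the miRNAs lay slightly below 0. The median difference was -0.07, the quartiles were -0.17 and 0.00216, 137 of the 184 were below 0 and 47 above it, and 157 (85.3%) differed by less than 0.32 in either direction. That offset belongs to the scaling: it became 0.16 when the percentile was taken over every probe and 0.07 without scaling. Relative to the median miRNA, 4 were higher and 2 lower by at least 1.5-fold, and miR-19a-3p, at -0.52, was then within the limit.

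**Figure D1:**
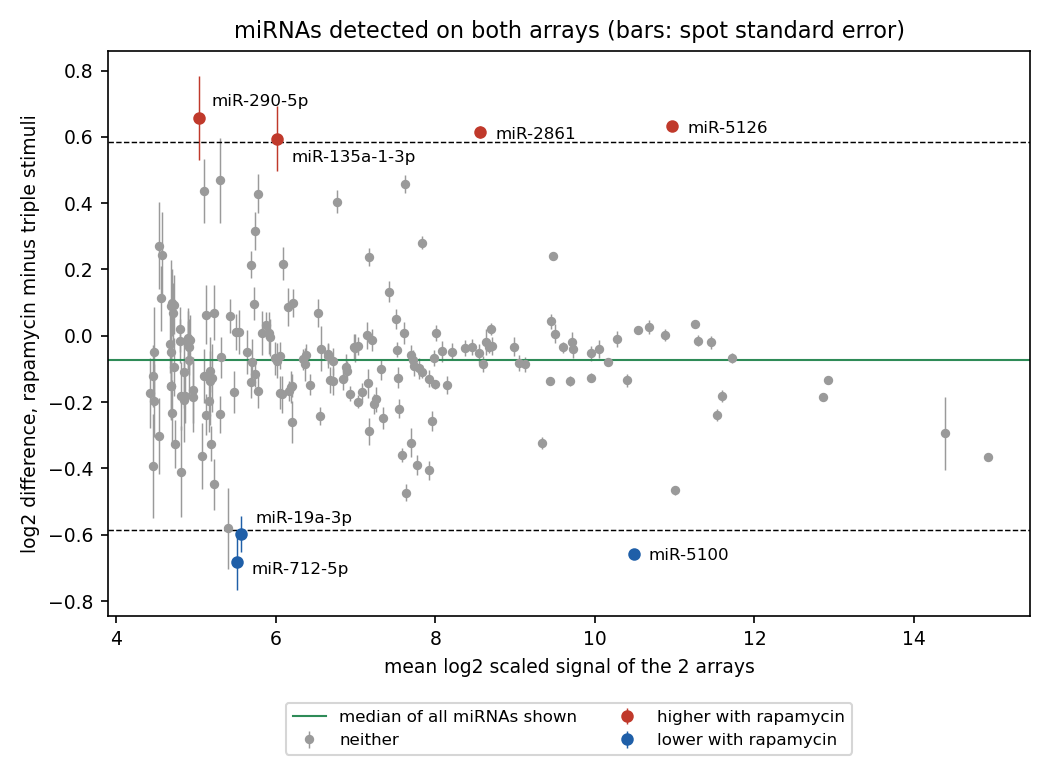
Log2 difference (rapamycin minus triple stimuli, y axis) against the mean log2 scaled signal of both arrays (x axis) for the 184 miRNAs detected on both; bars are spot standard errors, dashed lines the 1.5-fold limits and the green line the median of -0.07. The 4 red points are higher and the 3 blue points lower; most grey points lie close to the median at every level of signal.

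The arrays were of similar quality. Triple stimuli had 185 miRNAs detected and the rapamycin array 194, the highest of the 6 arrays. The rapamycin array was also the brighter one before scaling, with a 75th percentile signal of 382 against 346, a ratio of 1.10. Its median spread between spots was 8.67%, against 8.85%. Proximal tubule identity was partial: of 12 kidney epithelium miRNAs, 7 were detected (miR-10a-5p, miR-10b-5p and the 5 miR-30 members), whereas the tubular miRNAs miR-204-5p, miR-215-5p, miR-146b-5p, miR-194-5p and miR-192-5p were below the detection limit. None of the 5 miR-200 family miRNAs was detected. Of 23 miRNAs that mark other cell types or, as miR-200, epithelia in general, 1 was detected on either array, the muscle miRNA miR-206-3p, whose difference was -0.13. The 22 others read from -2.66 to 13.9 with triple stimuli and from -2.77 to 11.7 with rapamycin, below the floors of 21.2 and 17.2, the lowest scaled signals of any probe well above background on these arrays. The deposited value table exchanges the high glucose and palmitate arrays relative to the scanner files, while the arrays for triple stimuli and rapamycin match their own columns; wherever the array labelled high glucose is used for comparison, the table assigns it to palmitate.

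The mature sequences of the called miRNAs that RefSeq lists are shown because the called miRNAs differ so widely in base composition, with the seed in capitals (GRCm38.p6; 151 of the 184 miRNAs matched by name). The first 3 were higher with rapamycin and the last 2 lower.
miR-5126: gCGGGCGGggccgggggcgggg
miR-2861: gGGGCCUGgcggcgggcgg
miR-135a-1-3p: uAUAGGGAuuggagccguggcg
miR-5100: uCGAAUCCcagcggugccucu
miR-19a-3p: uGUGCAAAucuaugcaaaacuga
miR-5126 lies at chr1:84695890-84695911 on the plus strand, inside the span of the gene Dner, and every one of its bases is G or C (100%). miR-2861 lies at chr2:32712819-32712837 on the minus strand with 94.7% G and C. miR-135a-1-3p lies at chr9:106154179-106154200, plus strand, inside the spans of Glyctk and of a long noncoding RNA, with 59.1% G and C. miR-5100 lies at chr11:60728698-60728718, plus strand, inside the span of Mief2, with 61.9%. miR-19a-3p lies at chr14:115044048-115044070, plus strand, in the miR-17/92 cluster, with 34.8%. No seed is shared among these 5.

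Among the higher miRNAs, miR-5126 was the brightest. It read 1615 with triple stimuli and 2501 with rapamycin in scaled signal, a difference of 0.63 (spot SE 0.01). Both of its probes gave nearly the same difference, 0.61 and 0.63. It is a miRNA known mainly from sequencing catalogues.

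miR-2861 read 306 with triple stimuli and 468 with rapamycin, a difference of 0.61 (spot SE 0.02). It is known for repressing the histone deacetylase Hdac5 in bone-forming cells. Its genomic neighbour miR-3960, known from the same osteoblast work, read 656 and 776, a difference of 0.24 (spot SE 0.01) that stayed below 1.5-fold. Both members of the pair were therefore above 0, at different sizes.

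miR-290-5p was faint, at 26.1 with triple stimuli and 41.2 with rapamycin, a difference of 0.66 (spot SE 0.13). It belongs to the miR-290 cluster, which is characteristic of mouse embryonic stem cells. Its 3 detected probes gave differences from 0.52 to 1.00, so its size was less certain than that of miR-5126. Of 14 miRNAs of the cluster on the array it was the 1 detected on both arrays, and the other 13 were detected on neither.

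miR-135a-1-3p, the passenger arm of a miR-135a hairpin, read 52.5 and 79.3, a difference of 0.59 (spot SE 0.10). Its 2 detected probes gave 0.40 and 0.59, so the weaker probe lay below the limit. The 6 next highest miRNAs, none past the limit, were miR-680 (0.47), miR-3102-5p (0.46), miR-721 (0.44), miR-149-3p (0.43), miR-6538 (0.40) and miR-3096a-5p (0.32).

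Of the 10 miRNAs with the highest differences, 9 had their highest level on the array labelled high glucose, and miR-3096a-5p had it with rapamycin. That rapamycin exceeds triple stimuli in these 10 follows from how they were chosen. For comparison, the high glucose array was the highest of the 6 for 1 of the 10 lowest differences and for 38 of the 154 miRNAs detected on all arrays. The set of 154 is unlike the 10 highest, since miR-290-5p, miR-135a-1-3p, miR-680, miR-721 and miR-149-3p were not detected on all arrays. miR-5126 read 3566 on the high glucose array, 616 in the control, 641 with palmitate and 782 in hypoxia. miR-2861 read 633, 123, 130 and 153 on the same arrays in that order. miR-135a-1-3p read 92.3, 27.5, 29.7 and 37.1. miR-290-5p read 66.6 on the high glucose array and was not well above background on the other 3. The rapamycin levels of all 4 called miRNAs thus lay inside the range spanned by the other 5 arrays, between the triple stimuli and the high glucose array.

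**Figure D2:**
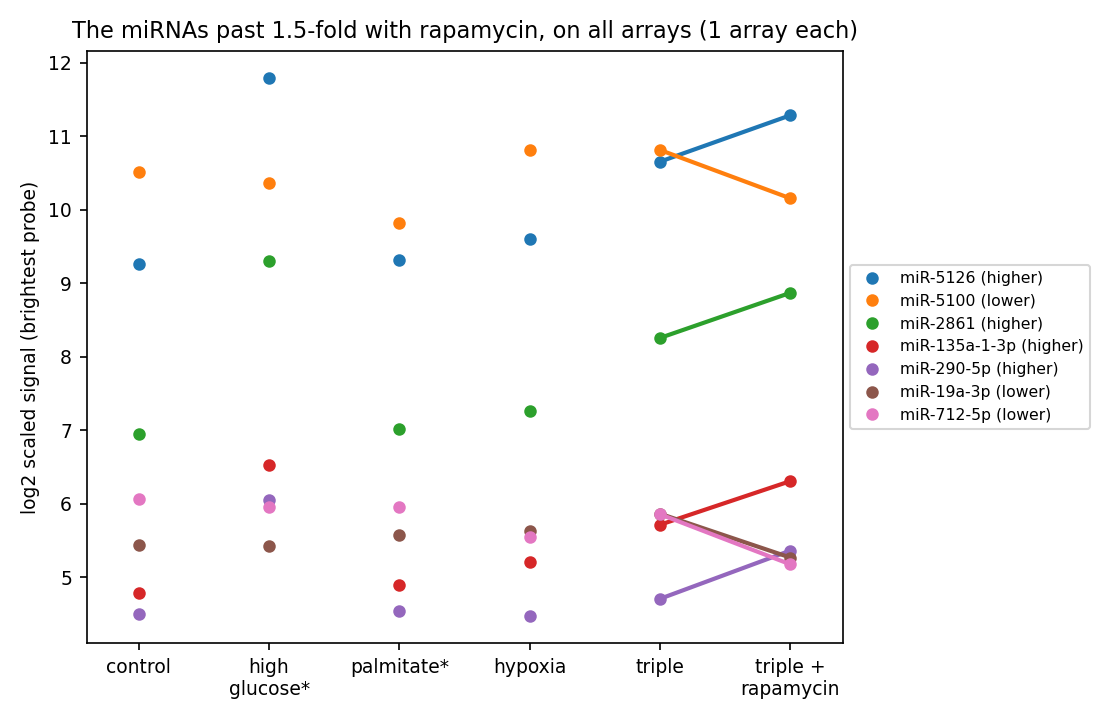
Log2 scaled signal (y axis) of the 7 called miRNAs on each of the 6 arrays (x axis, 1 array each); lines join triple stimuli and triple stimuli plus rapamycin, and values of arrays on which a miRNA was not well above background are at or near the floor. The 4 higher miRNAs peak on the array labelled high glucose, and miR-712-5p and miR-19a-3p are lowest with rapamycin; the starred arrays are the 2 whose labels the deposited table exchanges.

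The difference with rapamycin and the difference between the high glucose and control arrays, which have no array in common, correlated across the 154 miRNAs detected on all 6 arrays with Pearson's r of 0.63 and Spearman's rho of 0.28. Without the called miRNAs r was 0.56 over 149. For palmitate minus control r was 0.41 and rho 0.29, and for hypoxia minus control r was 0.15 and rho -0.00836. The points share the 1 scaling and the base composition of each miRNA, and they are not independent replicates.

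Base composition moved with the difference at its upper end. The 27 miRNAs with more than 65% G and C in the mature sequence had a median difference of 0.04, against -0.14 for the 10 with at most 35%. The 3 classes between them, of 35, 48 and 31 miRNAs, had medians of -0.07, -0.06 and -0.12, so there was no steady trend. Pearson's r of the difference with GC share was 0.41 over 151 miRNAs and Spearman's rho 0.24; without the called miRNAs r was 0.32 over 146. On the probe's own GC share, which covers all 184 miRNAs, r was 0.27 and rho 0.14. The 40 miRNAs with more than 65% on the probe had a median of -0.01, with 3 called higher and 2 lower. miR-6538 (94.7% G and C) and miR-149-3p (81.8%) lay high, whereas miR-721, with 42.9%, also differed by 0.44. GC-rich miRNAs lay low as well, such as miR-6366 (72.7%) at -0.37. miR-712-5p (-0.68) and miR-714 (-0.58) have probes of 84.6% and 85.7%, but no matched mature sequence, so the mature classes leave them out. The part of base composition in the differences was not tested.

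**Figure D3:**
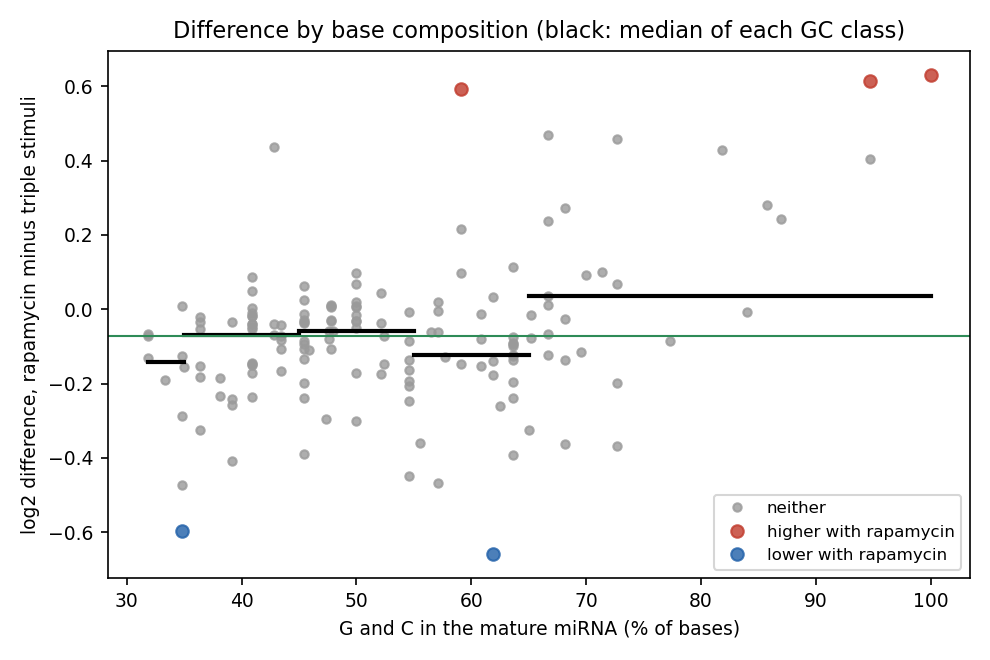
Log2 difference (rapamycin minus triple stimuli, y axis) against the share of G and C in the mature sequence (x axis, percent) for the 151 miRNAs with a RefSeq sequence; black bars are class medians and the green line is the median of all 184. The class above 65% has a median of 0.04 and holds 2 of the higher miRNAs, and the 2 lower miRNAs shown lie at 34.8% and 61.9%.

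Among the lower miRNAs, miR-712-5p read 58.0 with triple stimuli and 36.1 with rapamycin, a difference of -0.68 (spot SE 0.08). miR-712 is a product of the spacer of the ribosomal RNA precursor, known for its induction by disturbed flow in endothelium. The 4 other arrays read from 46.9 to 67.0, so the rapamycin array was the lowest of the 6. Its detected probes gave -0.68 and -0.44, and the scanner software's summed signal, 17.8 ± 1.57 (software error) against 15.1 ± 1.43, gave -0.24, which is within the 1.5-fold limit. The median of all miRNAs was 0.08 with that summed signal and -0.07 with the scaled signal.

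Of 6 ribosomal precursor miRNAs on the array, 4 were detected, with 1 called lower, 0 higher and a median of -0.36, against -0.07 over all miRNAs. The list's median was -0.13 with scaling over every probe, where that of all miRNAs was 0.16, and -0.11 with the software's summed signal, where that of all miRNAs was 0.08. miR-714 read 51.5 with triple stimuli and 34.4 with rapamycin, a difference of -0.58 (spot SE 0.12) just inside the limit. In hypoxia alone miR-714 read 32.3, as low as with rapamycin. miR-5105 (-0.14) and miR-5109 (-0.13) stayed near the other miRNAs.

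miR-5100 read 1803 with triple stimuli and 1142 with rapamycin, a difference of -0.66 (spot SE 0.01) and its probes gave -0.66 and -0.68. Its level with rapamycin lay between palmitate (904) and high glucose (1319), inside the range of the other arrays. miR-3968, which resembles it at the 5′ end, read 2421 and 1752, a difference of -0.47 (spot SE 0.01). The pair is shown because both carry the 7 letters CGAAUCC at or next to their first base, here in capitals.
miR-5100: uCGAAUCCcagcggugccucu
miR-3968: CGAAUCCcacuccagacacca
Of 1679 mature miRNAs in the RefSeq table, 2 (0.119%) hold this stretch, counted on the miRNA strand only, and these are the 2. Letters of this kind are familiar from the T loop of tRNAs; the match is a description of the sequence. The pair was singled out after its values were seen.

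miR-19a-3p read 58.3 with triple stimuli and 38.5 with rapamycin, a difference of -0.60 (spot SE 0.05). It is a member of the oncogenic, MYC-driven miR-17/92 cluster. The 4 other arrays read from 42.9 to 49.6. Triple stimuli therefore gave the highest and rapamycin the lowest level of the 6. Both probes were lower, at -0.60 and -0.70.

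miR-19b-3p shares the seed and the cluster of miR-19a-3p and differs from it by U11C, counted from the 5′ end. Both sequences are shown with the seed in capitals.
miR-19a-3p: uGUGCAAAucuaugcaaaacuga
miR-19b-3p: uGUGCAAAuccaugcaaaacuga
miR-19b-3p read 272 with triple stimuli and 227 with rapamycin, a difference of -0.26 (spot SE 0.03), and 228 to 235 on the 4 other arrays. Since miR-19b-3p also arises from a second hairpin on chromosome X, its signal sums 2 loci. The rest of the miR-17/92 transcript, at chr14:115043671-115044506, ran from -0.17 for miR-18a-5p and -0.16 for miR-17-3p to -0.04 for miR-20a-5p, 0.01 for miR-17-5p and 0.02 for miR-92a-3p. The 7 members had a median of -0.16, with 1 called lower, 0 higher and 6 neither. The cluster's median turned to 0.06 with scaling over every probe, where that of all miRNAs was 0.16. With the software's summed signal it was also 0.06, where that of all miRNAs was 0.08.

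The paralogous miR-106b/25 cluster lay close to 0. miR-106b-5p differed by -0.07, miR-25-3p by 0.01 and miR-93-5p by 0.04. The 5 miRNAs with the seed AAAGUGC, from both clusters and their X-linked copy, spanned 0.11 in all, from -0.07 to 0.04.

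miR-29b-3p lay furthest below the range of the other arrays, without passing 1.5-fold against triple stimuli. Its scaled signal was 233 with triple stimuli and 168 with rapamycin, a difference of -0.47 (spot SE 0.03). The 4 remaining arrays read from 228 to 242, so 5 arrays were nearly level and the rapamycin array alone was low, 0.44 below the nearest of them. The software's summed signals of 81.5 ± 6.73 and 65.5 ± 5.50 gave a difference of -0.32. The median of all miRNAs was 0.08 with the summed signal and -0.07 with the scaled signal, so the 2 differences have different offsets. Among 154 miRNAs that were detected on each of the 6 arrays, the rapamycin array lay at least 0.25 below the range of the others for 2, miR-29b-3p and miR-712-5p, and at least 0.25 above it for 1, miR-3096a-5p. The same count was 2 above for triple stimuli, 1 above for the control, 8 above for high glucose, 5 below for palmitate and 6 below for hypoxia. This description was chosen after the values were seen.

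The miR-29 family represses collagens and other matrix genes, and low miR-29 accompanies renal fibrosis. Its 3 members share the seed but not the difference, and their sequences are shown with the seed in capitals.
miR-29a-3p: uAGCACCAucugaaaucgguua
miR-29b-3p: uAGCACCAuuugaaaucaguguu
miR-29c-3p: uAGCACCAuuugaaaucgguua
miR-29a-3p read 1012 and 976, a difference of -0.05 (spot SE 0.02). miR-29c-3p read 128 and 125, a difference of -0.03 (spot SE 0.04). Each shares a primary transcript with a copy of miR-29b, at chr6:31062660-31063093 and chr1:195037040-195037634, so the difference of miR-29b-3p lay below those of both its cluster mates. miR-29a-3p differs from miR-29c-3p by C10U alone, and from miR-29b-3p by C10U, G18A, U21G and A22U over the first 22 bases, counted from the 5′ end; miR-29b-3p is also 1 base longer, at 23.

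Among the 151 miRNAs with a matched sequence, 18 seeds had 2 or more detected members, holding 52 miRNAs. Of these seeds, 15 spanned less than 0.25 between their highest and lowest member, and the median span was 0.12. Of all 184 miRNAs, 157 lay within 0.32 of 0, but that is a distance from 0 and gives no background for a span. The 3 wider seeds were those of miR-19 (0.34), of miR-29 (0.44) and of miR-130, which spanned 0.85. The miR-130 family is shown for this spread, with the seed in capitals.
miR-130a-3p: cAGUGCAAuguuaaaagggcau
miR-301a-3p: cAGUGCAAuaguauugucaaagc
miR-721: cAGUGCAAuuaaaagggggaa
miR-130a-3p, the brightest of them at 274 and 266, differed by -0.05. miR-301a-3p, faint at 32.4 and 24.4, differed by -0.41 (spot SE 0.14), with 1 of its 2 probes detected. miR-721 differed by 0.44 (spot SE 0.10) at 29.5 and 39.9, and read 69.2 on the high glucose array. Family members at the same seed therefore lay on both sides of 0, and the outer ones were those near background.

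miRNAs linked to mTOR showed no member past 1.5-fold. Of all 184 miRNAs 3.8% were called, so a list of this size can lack calls without differing from the rest. The list of miRNAs that target mTOR or its pathway had 8 of 14 members detected on both arrays, 0 higher and 0 lower, with a median of -0.06 against -0.07 over all miRNAs. miR-99a-5p (0.10), miR-100-5p (0.02) and miR-99b-5p (-0.10), which share a seed and are known to repress Mtor itself, lay within 0.20 of each other. miR-7a-5p, a repressor of insulin receptor signalling components, was lowest at -0.29, from 159 with triple stimuli to 130 with rapamycin. miR-221-3p and miR-222-3p, transcribed together and known to repress the cell cycle inhibitor p27, differed by -0.11 and -0.17.

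miR-21a-5p, raised in many kidney injuries, read 3306 with triple stimuli and 2914 with rapamycin, a difference of -0.18 (spot SE 0.02). Its summed signals of 1500 ± 108 and 1474 ± 106 differed by -0.03, less than the software's error. The median of all miRNAs was 0.08 with the summed signal and -0.07 with the scaled signal. Both measures thus placed miR-21a-5p below the median miRNA.

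**Figure D4:**
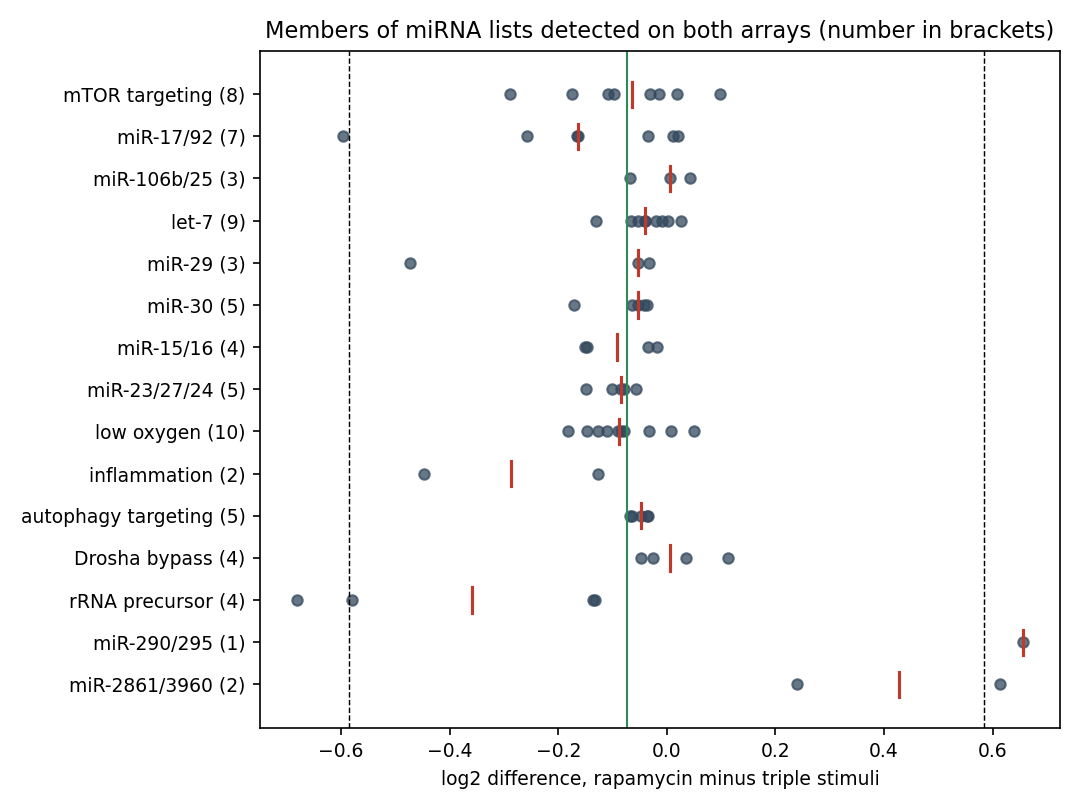
Log2 difference (rapamycin minus triple stimuli, x axis) of every detected member of 15 miRNA lists (rows, with the number of members); red ticks are list medians, the green line is the median of all miRNAs and dashed lines are the 1.5-fold limits. Most lists lie within 0.3 of 0; miR-19a-3p is the lowest point of the miR-17/92 row, and the ribosomal precursor and miR-2861 rows stand to the left and right.

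Low-oxygen miRNAs stayed at the level of triple stimuli. miR-210-3p, a classical transcriptional target of hypoxia-inducible factor, read 219 with triple stimuli and 206 with rapamycin, a difference of -0.09 (spot SE 0.03). The hypoxia array read 260, and the 3 arrays at 20% oxygen from 21.2 to 24.7, so the level with rapamycin remained that of low oxygen. The 10 detected members of the low-oxygen list ran from -0.18 for miR-21a-5p to 0.05 for miR-26a-5p, with a median of -0.09. Of these 10, 0 were called in either direction, where 3.8% of all miRNAs were called.

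Several well-known growth and autophagy families spanned little. The 9 let-7 members, which restrain growth genes such as Myc and Ras, ran from -0.13 for miR-98-5p to 0.03 for let-7b-5p. The 5 miR-30 members, known for repressing the autophagy gene Becn1, had miR-30e-5p lowest (-0.17) and miR-30a-5p highest (-0.04). The 4 detected miR-15/16 members ran from -0.15 to -0.02 and the 5 of the miR-23/27/24 clusters from -0.15 to -0.06. None of these families held a called member. With 3.8% called over all 184 miRNAs, this does not set them apart.

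Of 3 further lists, none held a called member, where 3.8% of all miRNAs were called. The 5 detected miRNAs known to target autophagy genes ran from -0.07 for miR-106b-5p to -0.04 for miR-20a-5p. The list of miRNAs that bypass Drosha or arise from other small RNAs had 4 of 17 detected, from -0.05 for miR-1839-3p to 0.11 for miR-484. Of the inflammation list 2 of 8 were detected: miR-155-5p at -0.13, and miR-212-3p, induced by CREB, at -0.45 (spot SE 0.08), from 43.5 to 31.9. On the array labelled palmitate miR-212-3p was lower still, at 27.4. Neither passed 1.5-fold. The list medians below 0, other than those of the ribosomal precursor, miR-17/92 and inflammation lists, turned positive with no scaling, along with the median of all miRNAs.

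Arms cut from the same precursor could be compared in 15 hairpins. The median gap between the 2 arms was 0.17, about as wide as the interval between the quartiles of all 184 miRNAs (-0.17 and 0.00216). The widest was that of miR-149, with -0.08 for miR-149-5p and 0.43 for the GC-rich miR-149-3p. miR-1897 followed, with 0.21 for the 5p and -0.25 for the 3p arm, then miR-99b with -0.10 and -0.39. miR-125a had -0.03 for the 5p arm that targets growth genes and 0.22 for the 3p arm.

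Neighbouring hairpins within 10 kb formed 17 groups with at least 2 detected miRNAs, and 11 of these spanned less than 0.25. The grouping was incomplete. It left out miR-99b-3p (-0.39, chr17:17830232-17830253), which lies beside the group of miR-125a and let-7e (chr17:17830352-17830879), where miR-125a-3p differed by 0.22. The pair of miR-2861 and miR-3960 was also not among the groups, so counts and order hold for the groups as formed. Among the groups as formed, the widest was miR-17/92 (0.62), through miR-19a-3p, followed by the 2 miR-29 clusters (0.44 and 0.42). The miR-182, miR-183 and miR-96 cluster spanned 0.33, and the miR-23a, miR-27a and miR-24 cluster 0.07.

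Detection itself changed for 11 miRNAs, all of them at the edge of background. The 10 detected with rapamycin alone were let-7b-3p, miR-1306-3p, miR-181a-5p, miR-29b-1-5p, miR-3092-3p, miR-328-5p, miR-425-5p, miR-5119, miR-705 and miR-744-5p, and miR-5132-5p was detected with triple stimuli alone. miR-5132-5p was at least 1.19-fold lower with rapamycin. Among the 10, the bound reached at least 1.15-fold higher for miR-328-5p and at least 1.10-fold higher for miR-425-5p, and 5 had no bound above 1. On their brightest probe, let-7b-3p (15.5 with rapamycin against 19.4), miR-1306-3p (20.6 against 22.4), miR-3092-3p (19.7 against 21.7) and miR-5119 (20.5 against 20.7) read lower with rapamycin. The others of the 10 read higher. Of the 10, 6 were also detected on the array labelled high glucose. All 11 were called detected on both arrays by the scanner software, and the rapamycin array was the brighter of the pair.

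The calls differed in how many of the processing alternatives kept them. Counted are the alternatives that change the values, including the 3 chosen after seeing the data, and not the changes of limits. Several of them only shift all differences together, so they are not independent checks. miR-5126 was past 1.5-fold in 16 of 16 alternatives and miR-290-5p in 14 of 15, whereas miR-2861 was in 13 of 16 and miR-135a-1-3p in 9 of 15. Of the lower miRNAs miR-5100 was called in 11 of 16, miR-712-5p in 8 of 16 and miR-19a-3p in 5 of 16. Their differences ranged from -0.69 to -0.43, from -0.79 to -0.24 and from -0.65 to -0.32. With normexp background correction miR-290-5p was at 0.16. That setting adds an offset of 50 to every spot, which by itself shrinks the log2 differences of faint miRNAs. The sign was the same in every alternative that measured each of these 7 miRNAs.

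**Figure D5:**
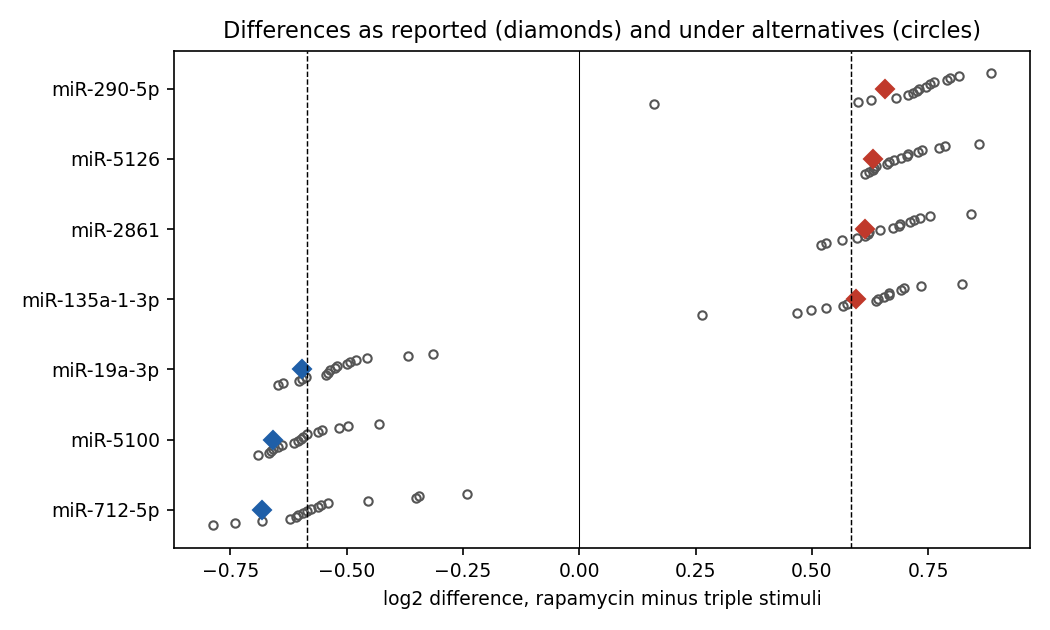
Log2 difference (rapamycin minus triple stimuli, x axis) of the 7 called miRNAs (rows) as reported (diamonds) and under each alternative (circles, spread vertically by value only); dashed lines are the 1.5-fold limits. miR-5126 stays beyond the limit under all 16 alternatives that change the values, while circles of miR-19a-3p and miR-712-5p reach -0.32 and -0.24.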

How the data were processed

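miRNAs of 6 cultures were measured on 1-colour Agilent arrays, 1 per condition. The deposited values are linear spot intensity, background-subtracted by the authors with Agilent Feature Extraction 10.7.3.1, per the file headers and the submitters' processing notes, and not normalised between arrays. The deposited value table holds intensity per miRNA after a scaling by the authors, with many values of a column at its lowest value; the choice of its factors is not stated, and 73.0% and 73.5% of its values for triple stimuli and rapamycin were within 0.1% of the scanner's summed signal times 1 factor. The number of arrays limits the precision.

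Control and outlier spots were left out, the spots of each probe averaged, and each array scaled to its 75th percentile over the 281 of 3105 probes detected on all arrays. Scaling came before the floor and log2. Detection of a probe needed 50% or more of its spots flagged by the software as well above background. Each miRNA is represented by its brightest probe. Calls required detection on both arrays, 1.5-fold and 2 spot standard errors. A bound is the brighter array's level over the dimmer array's floor or own signal, whichever is higher. Python 3.11.15 (numpy 2.4.6, pandas 2.3.3) and limma 3.58.1 in R 4.3.3, for normexp, were used, and the calling was tested on simulated data.

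miRNAs named are those called, the 10 highest and 10 lowest differences, each list's extremes, miR-210-3p, miR-21a-5p, the 10 brightest, those detected on 1 array, and members of seed families and 2-arm hairpins. Members and lists were chosen with earlier results of these data known. The alternatives varied scaling, background correction, probe and spot summaries, detection and limits.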

Additional observations from a re-analysis of the deposited data

How the results depend on the processing

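With 1 array per condition no array could be left out, and no paired analysis was possible because no condition has a second array. Scaling to the percentile of every probe gave a median difference of 0.155, with 9 miRNAs higher and 0 lower; no scaling gave 6 and 0 (0.0681), and spike-in scaling 4 and 0 (0.0320). The software's summed signal gave 7 and 0 (0.0755), normexp with its offset of 50 gave 1 and 1, and the mean of all detected probes 2 and 2. Median scaling moved the median to -0.0124 and quantile normalisation to -0.00371, each with 4 and 2. Detection on all 6 arrays left 2 higher and 3 lower, and the deposited table gave 10 and 3. Of the calls in the deposited table, 3 higher and 2 lower were among those reported above. A 2-fold limit left 0 and 0, and with a limit of 0.32 on the log2 scale there were 9 and 18. Chosen after seeing the data, the 75th percentile over probes detected on these 2 arrays gave 4 and 1 (0.0239), lowess centring 4 and 2 (0.0103), and centring on the median miRNA 4 and 2 (0). Median of spots, odd or even spots and dropping the spot-error limit kept both counts within 1.5 times, but not always the members. Median of spots exchanged miR-135a-1-3p for miR-680, and quantile normalisation exchanged miR-2861 for miR-3102-5p. Odd spots lost miR-712-5p and added miR-721 and miR-669p-3p. Even spots lost miR-135a-1-3p and miR-19a-3p. Faint miRNAs had the largest spot errors, up to 0.16.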

Other observations

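The 10 brightest miRNAs held no called member, where 3.8% of all miRNAs were called. The differences of these 10 ran from -0.37 for miR-6366 to 0.04 for miR-1224-5p, with a median of -0.16 against -0.07 over all miRNAs. By order of discovery, the 128 miRNAs with miRBase numbers below 1000 had a median of -0.06 with 2 higher and 2 lower, and the 22 numbered 5000 or more a median of -0.13 with 1 higher and 1 lower.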
